A study of Mus musculus with 34 samples.

Results

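GFP+ and GFP- basal cells of the young mouse mammary gland were compared on 11 of the 34 arrays of a gene expression study, namely all CD24+CD29+ arrays among replicates 13 to 34. The 5 GFP+ CD24+CD29+ arrays were replicates 15, 17, 24, 28 and 32, and the 6 GFP- CD24+CD29+ arrays were replicates 13, 21, 25, 29, 30 and 33. They were chosen by sorted population and replicate number alone, since no GFP- CD24+CD29+ array exists among replicates 1 to 12, and they were normalized among themselves. A replicate here is the number of a deposited sample, and each sample was hybridized to 1 array.

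The mammary ducts have an outer basal layer of contractile myoepithelial cells, which also holds cells that can regenerate a gland on transplantation, and an inner luminal layer with the progenitors of the milk-secreting cells. Basal cells stain strongly for the integrin CD29 and express keratins 5 and 14 and smooth muscle proteins. Luminal cells stain weakly for CD29 and express keratins 8 and 18, and their progenitors express Elf5 and low levels of milk genes before any pregnancy.

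All mice were virgin females 4 weeks old that carried both MMTVrtTA, in which the mouse mammary tumor virus promoter drives the doxycycline-dependent activator rtTA, and H2BGFP, a histone H2B fused to enhanced green fluorescent protein under that activator. Doxycycline was given to the breeders and then to the pups until tissue was taken, so both populations had been exposed to it. The H2BGFP line was CD1 backcrossed to FVB, and the MMTVrtTA line it was crossed with was on FVB. GFP+ and GFP- cells therefore came from mice of the same genotype and treatment and were separated by the reporter, which only some of the mammary epithelial cells of these mice express. The comparison asks how basal cells sorted as positive for the reporter differ from basal cells sorted as negative for it. The labels do not say which arrays came from separate mice or pools, so p-values here reflect only how far these samples spread, which may be technical. They also give no chip or collection date for single arrays, so these could not be used as batches.

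Values are log2 normalized probe intensities after background correction, in which a probe that is not detected lies near 4.5. A probe is called detected where its signal exceeded that of the array's own negative controls at p under 0.05. Between 33.9% and 40.1% of probes were detected on the GFP+ arrays and between 33.1% and 42.1% on the GFP- arrays. The median correlation between arrays was 0.87 among GFP+ arrays, 0.87 among GFP- arrays and 0.87 between the populations, and no pair of arrays held identical values. In a principal component analysis GFP+ replicate 32 stood apart on the first component (14.7% of the variance), GFP- replicate 25 on the second (13.7%) and GFP- replicate 13 on the third. Results are therefore also given without these 3 arrays, a choice made after seeing the data. GFP+ replicate 24 stood apart on the fourth component and was kept.

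**Figure D1:**
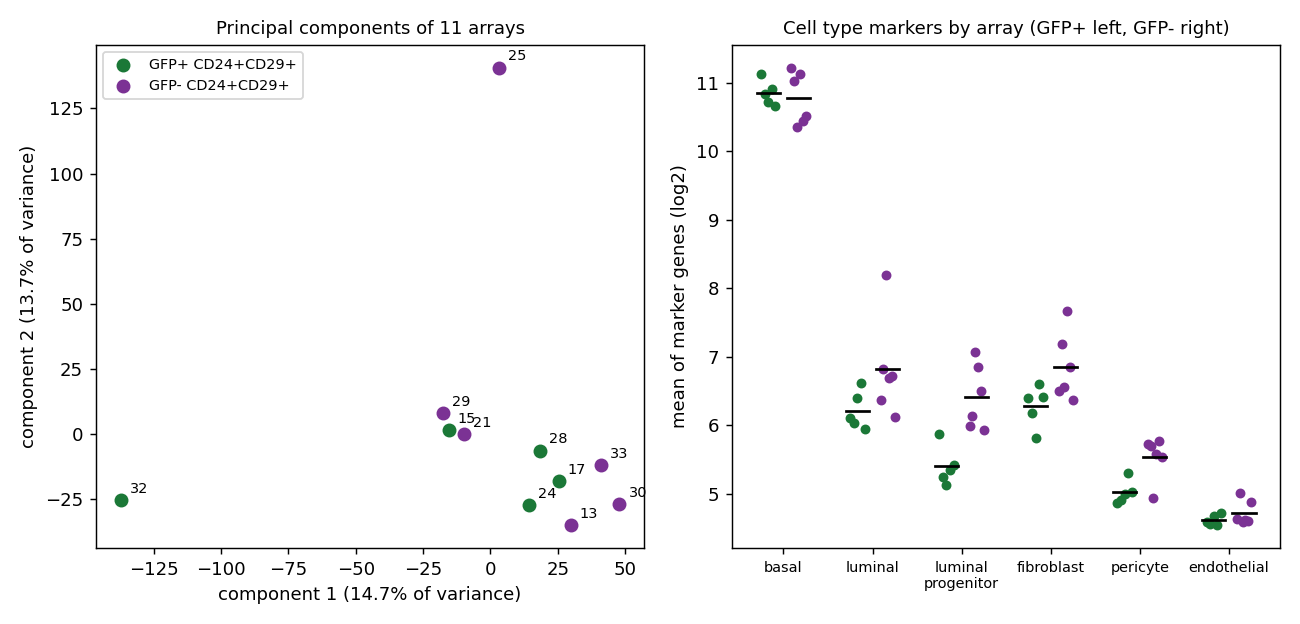
Left, the 11 basal arrays on the first and second principal components of the log2 intensities, with GFP+ and GFP- arrays marked and numbered by replicate. Right, the mean log2 intensity of the marker genes of each cell type on each array. GFP+ replicate 32 and GFP- replicate 25 lie apart from the other arrays, and GFP- replicate 25 has the highest luminal marker mean, 8.19.

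The reporter transcript followed the sort, although GFP- basal cells were not free of it. The eGFP probe, which reads the transgene itself, measured 7.50, 10.44, 10.16, 9.25 and 9.64 on the GFP+ arrays, against a lowest value of 4.79, a median of 6.30 and a highest value of 7.27 on the GFP- arrays. Every GFP+ array was above every GFP- array, but 4 of 6 GFP- arrays still had a detected eGFP signal. The difference was 3.31 (95% interval 1.93 to 4.69), with a two-sided exact permutation p of 0.00216, the smallest that 462 groupings of 5 and 6 arrays can give. It was 2.59 without the 3 arrays that stood apart (exact permutation p = 0.0286, again the smallest that the remaining arrays can give). The GFP- arrays left out there, replicates 13 and 25, were those without a detected eGFP signal. In limma across all probes on the 11 arrays the adjusted p of eGFP was 0.730. The gap was numerically wider in the luminal CD24+CD29lo arrays of the same replicates, where GFP+ arrays averaged 11.41 ± 0.41 (SD, n = 5) and GFP- arrays 4.70 ± 0.15 (SD, n = 6), with eGFP detected on 0 of 6 GFP- arrays. The difference between the gates was -3.40 with an adjusted p of 0.0549 in limma. That p was under the threshold without background correction (0.0356), with the processed values (0.0136), with all 34 arrays (0.0040) and without the 3 arrays that stood apart (0.0128). In bulk samples such as these, fewer cells with reporter RNA and less of it per cell cannot be told apart.

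Across the array, GFP+ and GFP- basal cells showed no gene that passed the test. Of 35373 probes tested with limma, 0 had a Benjamini-Hochberg adjusted p under 0.05 (0% of probes), and the smallest adjusted p was 0.102. An unadjusted p under 0.05 was found for 1367 probes, or 3.86% of those tested, with 739 higher and 628 lower in GFP+ cells. This share is no larger than a threshold of 0.05 gives on average when no probe differs. The unpaired test of the study's methods gave 1568 such probes and 0 after adjustment. Without the 3 arrays that stood apart 2 probes passed, Serping1, a complement inhibitor (difference -2.05), and Prxl2a (-2.47), both at an adjusted p of 0.0461 in limma. When the 4 populations of replicates 13 to 34 were normalized and fitted together, so that the luminal arrays also contributed to the estimate of spread, 8 of 38697 probes passed (0.0207%). These were eGFP, Pear1 and 6 probes lower in GFP+ cells, for Sparcl1, Kcne4, Gjb2, Fgl2, Prxl2a and an unnamed transcript.

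The precision of the differences varied between probes. The median difference over all probes was 0.01 and the median standard error 0.25. For 21172 probes (59.9%) the 95% interval of the difference lay within 2-fold in either direction. Among the 7813 probes detected on all 11 arrays this held for 3439 (44.0%), so for most well-expressed transcripts the interval reached past 2-fold at this number of arrays.

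At the level of genes, each represented by its brightest probe, 327 of 16329 (2.00%) had an unadjusted p under 0.05 and were higher in GFP+ cells, and 359 (2.20%) were lower. The GFP+ and GFP- values did not overlap for 31 genes higher (0.190%) and 48 genes lower (0.294%) in GFP+ cells. Without the 3 arrays that stood apart 367 of 14655 genes were higher and 374 lower at an unadjusted p under 0.05. The shares over all 11 arrays are the background for the counts below.

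The probes of smallest p included several that were at background on the GFP+ arrays and detected on all GFP- arrays. These genes were chosen by their p-values in this comparison or because an earlier analysis of these samples had called them, so their values are given as a description. Sparcl1, a secreted matricellular protein related to SPARC, measured 5.14, 5.22, 4.68, 5.02 and 4.71 on the GFP+ arrays, against a lowest value of 6.67, a median of 7.83 and a highest value of 8.47 on the GFP- arrays. The ranges did not overlap, and Sparcl1 had the smallest p of any probe (difference -2.84 ± 0.31 SE, limma adjusted p = 0.102). Its adjusted p was 6.06e-04 in limma when the 4 populations were fitted together, 0.0369 when only detected probes were tested and 0.0075 without GFP- replicate 30.

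Gjb2, which encodes the gap junction protein connexin 26, had the largest difference of any gene tested. It measured 4.86, 4.63, 4.53, 4.53 and 4.86 on the GFP+ arrays, against a lowest value of 5.99, a median of 9.54 and a highest value of 11.04 on the GFP- arrays. Gjb2 was detected on 0 of 5 arrays of GFP+ cells and 6 of 6 arrays of GFP- cells, at least 17.1-fold lower in GFP+ cells when the lowest detected signal of each array stands for the undetected one (difference -4.47 ± 0.79 SE, limma adjusted p = 0.575). Of its other probes, one differed by -1.80 and was detected on 0 of 5 arrays of GFP+ cells and 4 of 6 arrays of GFP- cells, and the other was detected on no basal array. Among the 9 gap junction genes tested 1, Gjb2 itself, was lower and 0 higher at an unadjusted p under 0.05, with 2 lower without the 3 arrays, and Gja1, which encodes connexin 43, differed by -0.20.

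Kcne4, a regulatory subunit of voltage-gated potassium channels, gave 4.51, 4.54, 4.38, 4.65 and 4.48 on the GFP+ arrays, against 5.85, 7.48 and 8.37 as the lowest, median and highest GFP- values. Fgl2, a fibrinogen-like protein with prothrombinase activity, gave 4.58, 4.48, 4.63, 4.52 and 4.54 on the GFP+ arrays, against 5.80, 6.28 and 8.40. Avpr1a, a vasopressin receptor, gave 4.61, 4.50, 4.50, 4.42 and 4.40 on the GFP+ arrays, against 5.93, 8.24 and 9.84. These 3 probes were detected on 0 of 5 arrays of GFP+ cells and 6 of 6 arrays of GFP- cells, so that the GFP+ values show no order among themselves. The folds by these probes were at least 4.39 for Kcne4, at least 3.12 for Fgl2 and at least 7.36 for Avpr1a, each lower in GFP+ cells, with limma adjusted p-values of 0.561, 0.730 and 0.941. A dimmer probe of Avpr1a was detected on 3 of 5 arrays of GFP+ cells and 5 of 6 arrays of GFP- cells and differed by -0.98, so Avpr1a was not below detection in GFP+ cells by every probe.

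**Figure D2:**
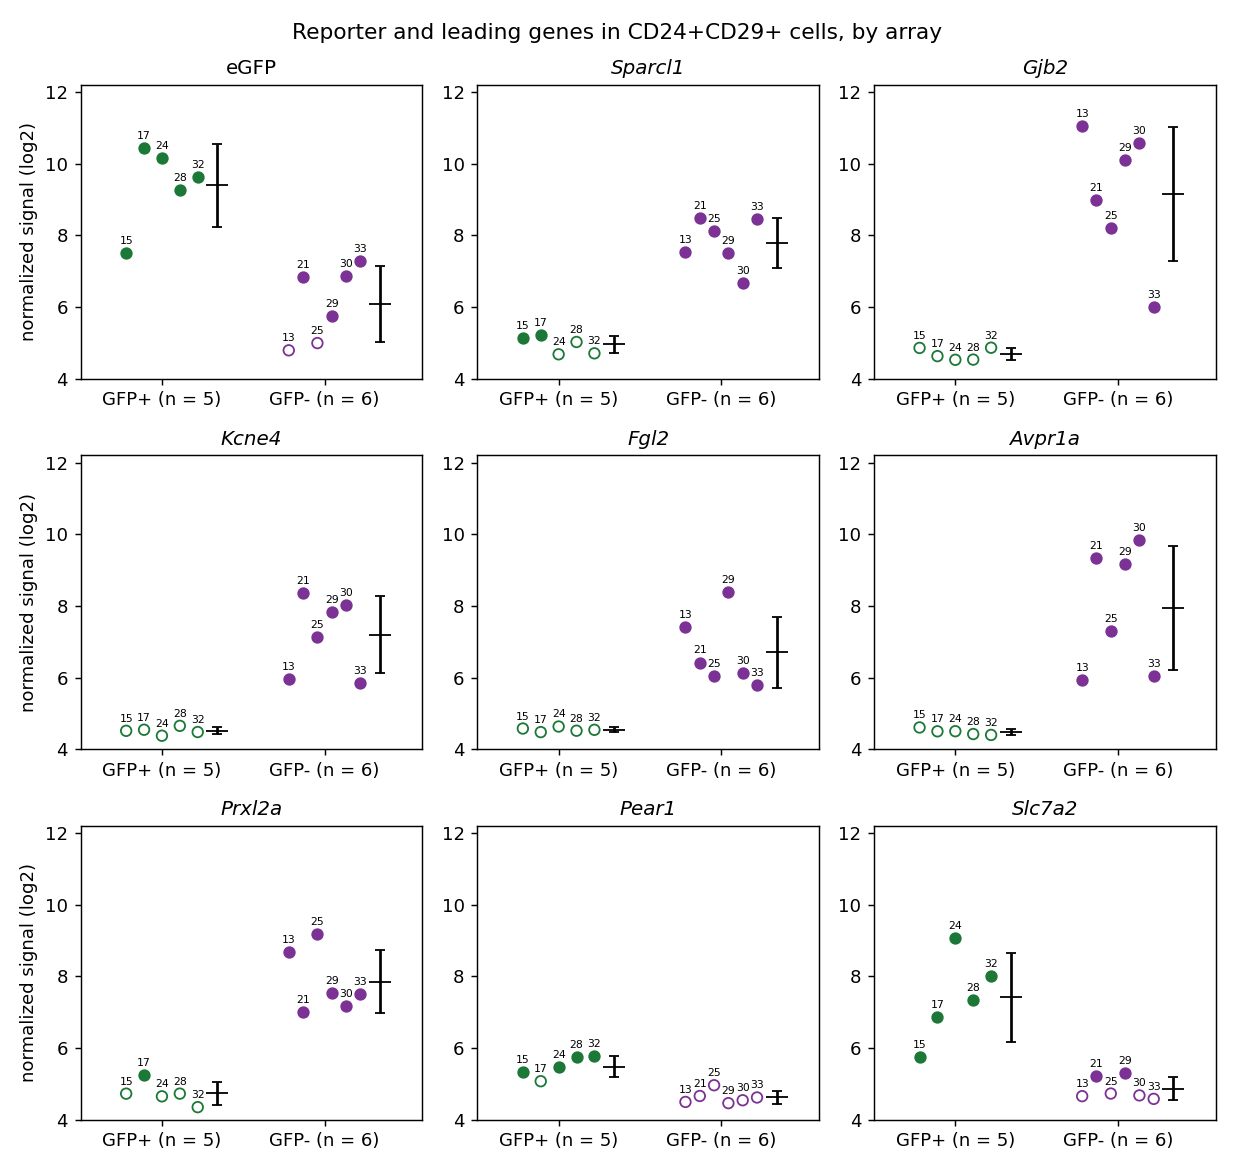
Log2 normalized intensity of eGFP and 8 genes on the 5 GFP+ (left) and 6 GFP- (right) basal arrays, with replicate numbers, the mean and the SD. Filled points were detected and open points were not, and for Gjb2, Kcne4, Fgl2 and Avpr1a all 5 GFP+ points are open and all 6 GFP- points filled.

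Alcam, a cell adhesion molecule of the immunoglobulin family, was detected on 2 of 5 arrays of GFP+ cells and 6 of 6 arrays of GFP- cells. Its values were 4.87, 5.01, 5.69, 4.63 and 5.78 on the GFP+ arrays, against 6.44, 7.87 and 9.77 as the lowest, median and highest GFP- values (difference -2.59 ± 0.52 SE, limma adjusted p = 0.790). Prxl2a, a peroxiredoxin-like protein, gave 4.73, 5.25, 4.65, 4.73 and 4.35 on the GFP+ arrays, against 6.99, 7.53 and 9.19. Its difference was -3.11 ± 0.39 SE (limma adjusted p = 0.185), while a brighter probe of Prxl2a differed by -1.28 with an interval of -3.76 to 1.20. Eya1, a transcriptional coactivator and phosphatase, was split within the GFP+ arrays, at 4.54, 4.39, 7.53, 8.15 and 6.84, against 9.20, 9.72 and 10.70 on the GFP- arrays (difference -3.54 ± 0.70 SE, limma adjusted p = 0.730). Replicates 15 and 17 were at background for Eya1 and the other 3 GFP+ arrays were not.

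These genes differed in how they stood in luminal cells, as measured on the 22 arrays of replicates 13 to 34 normalized together. Gjb2 averaged 9.85 in GFP+ luminal and 9.63 in GFP- luminal cells, and Slc28a3, a nucleoside transporter, averaged 10.92 in GFP+ luminal and 10.90 in GFP- luminal cells. This brighter Slc28a3 probe was detected on 0 of 5 GFP+ basal arrays and 6 of 6 GFP- basal arrays, while its other probe was detected on 1 of 5 and 0 of 6 and differed by 0.26. Prxl2a was likewise detected on all luminal arrays. Kcne4 was detected on none of the luminal arrays, Fgl2 on 0 of 5 GFP+ luminal arrays and 1 of 6 GFP- luminal arrays, and Col3a1 on 0 of 5 and 2 of 6. The probes at background in GFP+ basal cells thus included some that were bright in luminal cells and others that were at or near background there.

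Among the leading genes higher in GFP+ cells, other probes of the same gene often did not follow. Slc7a2, a transporter of cationic amino acids, measured 5.74, 6.88, 9.08, 7.34 and 8.02 on the GFP+ arrays, against a lowest value of 4.58, a median of 4.70 and a highest value of 5.31 on the GFP- arrays. Its brightest probe was detected on 5 of 5 arrays of GFP+ cells and 2 of 6 arrays of GFP- cells (difference 2.55 ± 0.49 SE, limma adjusted p = 0.730), but the other 3 probes of Slc7a2 differed by -0.87, -0.25 and 0.00. Ankrd10, an ankyrin repeat protein, had a pair of probes with differences of 2.90 and 2.78, while its brightest probe differed by -0.04 (95% interval -0.72 to 0.65).

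Lcmt1, the methyltransferase of the protein phosphatase 2A catalytic subunit, had GFP+ values close to each other. It measured 9.30, 9.29, 9.19, 9.44 and 9.33 on the GFP+ arrays, against 8.18, 8.53 and 8.83 as the lowest, median and highest GFP- values (difference 0.77 ± 0.12 SE, limma adjusted p = 0.541). A second probe of Lcmt1 differed by 1.02, and one near background by 0.01. Pear1, a platelet and endothelial receptor with EGF repeats, gave 5.34, 5.07, 5.46, 5.75 and 5.78 on the GFP+ arrays, against 4.46, 4.58 and 4.96, with this probe detected on 4 of 5 arrays of GFP+ cells and 0 of 6 arrays of GFP- cells (difference 0.86 ± 0.15 SE, limma adjusted p = 0.561). The probe of Pear1 with the highest mean, detected on 2 of 5 and 1 of 6 arrays, differed by -0.26, and another by 0.14.

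Over the leading genes of both directions, 17 had more than 1 tested probe. Of their 35 further probes, 21 had the sign of the leading probe, 4 of these at an unadjusted p under 0.05, and 1 had the opposite sign at such a p. The last was a probe of Kmt5b, a histone methyltransferase, at -2.01 against 1.07 for the leading probe.

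**Figure D3:**
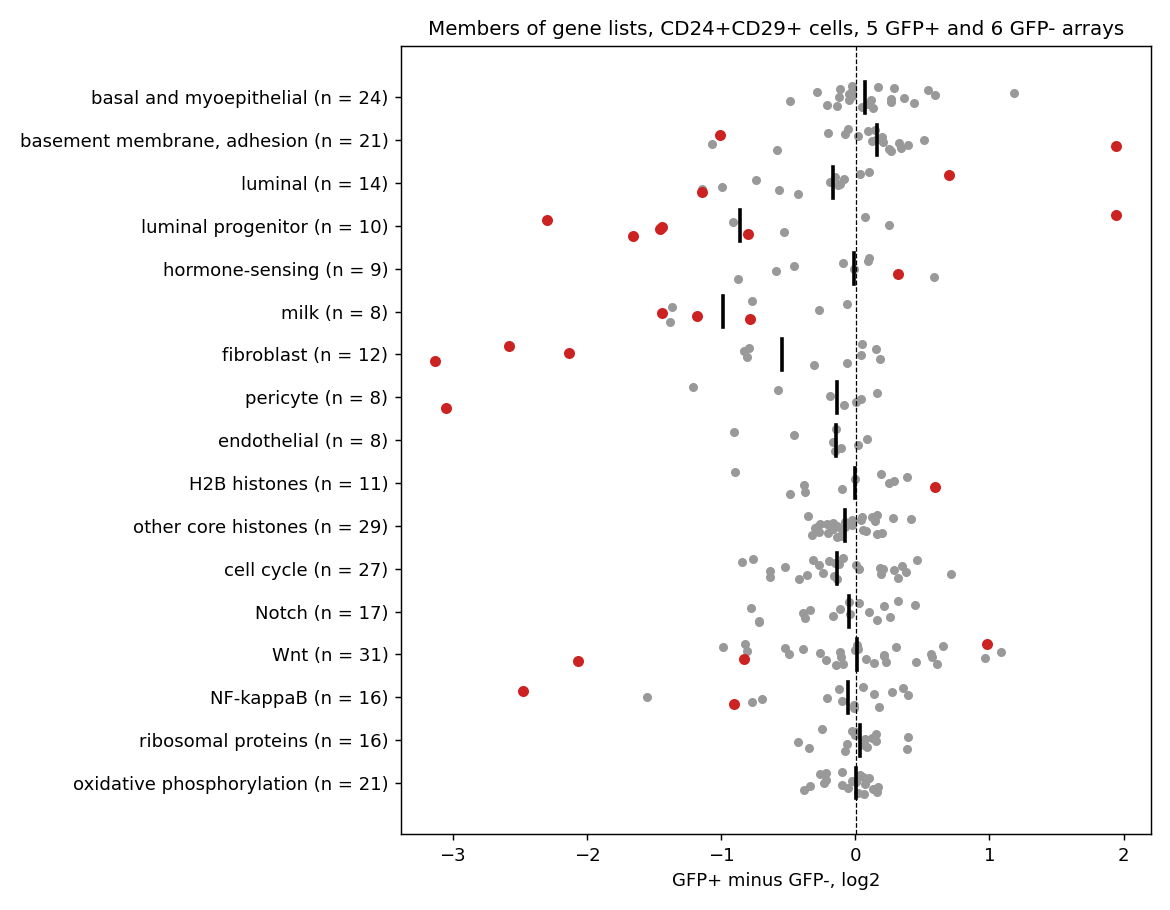
Difference in log2 intensity, GFP+ minus GFP-, for the members of 17 gene lists, 1 point a gene, with members of unadjusted p under 0.05 in red, the list median as a black tick and the median of all genes (0.00) as a dashed line. Luminal progenitor and milk genes lie mostly left of the line, with medians of -0.86 and -0.98, and basal genes lie around it, with a median of 0.07.

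No basal or myoepithelial gene stood out between the populations. Of 24 basal and myoepithelial genes tested, 0 were higher and 0 lower at an unadjusted p under 0.05, the median difference was 0.07, and 23 were detected on all arrays. Without the 3 arrays that stood apart the counts were again 0 and 0 and the median 0.08. Krt14, a basal keratin, averaged 13.21 ± 0.20 (SD, n = 5) in GFP+ cells and 13.16 ± 0.23 (SD, n = 6) in GFP- cells, with an interval of -0.25 to 0.35 for the difference. Acta2, smooth muscle actin, averaged 14.17 ± 0.17 in GFP+ cells and 14.08 ± 0.07 in GFP- cells, with an interval of -0.12 to 0.30.

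For these keratin and actin genes a 2-fold difference lies outside the interval, as it does for Krt5 (-0.34 to 0.61), Krt17 (-0.55 to 0.28) and Myh11, smooth muscle myosin (-0.10 to 0.98). Trp63, the transcription factor that maintains basal cells, differed by -0.21, but its interval of -1.19 to 0.76 includes 2-fold lower levels in GFP+ cells. Egfr, the epidermal growth factor receptor, differed by 1.19 with an interval of -0.14 to 2.52. Altogether 14 of the 24 intervals lay within 2-fold.

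The labelled gate was checked against its markers. In GFP+ arrays 10 of 12 basal markers, and in GFP- arrays 11 of 12, were higher in CD24+CD29+ than in CD24+CD29lo cells in limma at an adjusted p under 0.05, and all 6 luminal progenitor markers were lower in both. Of 9 pan-luminal markers 8 were lower in GFP+ and 7 in GFP- arrays. Of 5 hormone-sensing markers only 1 was lower in GFP+ and 3 in GFP- arrays. The basal markers were detected on all 11 arrays, and their summed linear signal ranged from 45757 to 56239 on the GFP+ arrays and from 41832 to 54043 on the GFP- arrays.

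Luminal progenitor genes included the most members at an unadjusted p under 0.05 of the cell type lists. Of 10 tested, 5 were lower and 1 higher at an unadjusted p under 0.05, against 2.20% and 2.00% of all genes, with a median difference of -0.86 against 0.00 for all genes. Without the 3 arrays that stood apart 3 were lower and 0 higher, with a median of -0.61. No member passed adjustment over all probes, where each had a limma adjusted p of 0.966. The list was chosen with earlier results of these data known, so its counts are a description.

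Csn3, the kappa casein gene that luminal progenitors already express in virgin mice, measured 8.30, 7.34, 7.13, 8.11 and 8.36 on the GFP+ arrays, against a lowest value of 8.25, a median of 9.48 and a highest value of 9.89 on the GFP- arrays. The ranges touched, with GFP+ replicates 15 and 32 above the lowest GFP- array (difference -1.44 ± 0.33 SE, unadjusted limma p = 0.00136). The second of its probes differed by -1.53, and a dimmer one, detected on all 11 arrays, by -0.21 (unadjusted limma p = 0.582). Luminal cells had far more of it, averaging 12.61 in GFP+ and 11.72 in GFP- cells on the 22 arrays normalized together.

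The brightest probe of Elf5, the transcription factor that specifies the alveolar lineage, was detected on 0 of 5 arrays of GFP+ cells and 5 of 6 arrays of GFP- cells. Its values were 4.60, 4.87, 4.58, 4.45 and 4.77 on the GFP+ arrays, against 4.70, 6.33 and 7.90 as the lowest, median and highest GFP- values, at least 2.38-fold lower in GFP+ cells. Of its other probes, one differed by -0.56 and the other, detected on 2 of 5 arrays of GFP+ cells and 2 of 6 arrays of GFP- cells, by 0.25. Wfdc18, a secreted protease inhibitor, was spread over 7.48, 5.62, 8.31, 5.00 and 4.44 on the GFP+ arrays, against 6.97, 8.73 and 9.30. Replicates 15 and 24 overlapped the GFP- range for Wfdc18, and its difference was -2.30.

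Ltf, the iron-binding protein lactoferrin, and Aldh1a3, an aldehyde dehydrogenase of retinoic acid synthesis, differed by -1.46 and -0.80. Not every member of the list behaved so: Lcn2, an iron-trafficking protein, differed by 0.25, Mfge8, a milk fat globule protein that basal cells express strongly as well, by 0.07, and Itga2, an integrin subunit that binds collagen, by 1.95. Itga2 also belongs to the basement membrane and adhesion list, of whose 21 genes 1 was higher and 1 lower at an unadjusted p under 0.05, with a median of 0.16.

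Milk genes, a list that also holds Csn3 and was likewise chosen with earlier results known, lay on the same side of 0. All 8 tested had differences below 0, with a median of -0.98, and 3 were lower and 0 higher at an unadjusted p under 0.05. Without the 3 arrays that stood apart 4 were lower and the median was -1.26. Csn2, the beta casein gene, was detected on 0 of 5 arrays of GFP+ cells and 4 of 6 arrays of GFP- cells, and Csn1s1, an alpha casein gene, on 1 of 5 arrays of GFP+ cells and 6 of 6 arrays of GFP- cells. Csn1s1 differed by -1.38 and just missed an unadjusted p of 0.05, at 0.0503 in limma.

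**Figure D4:**
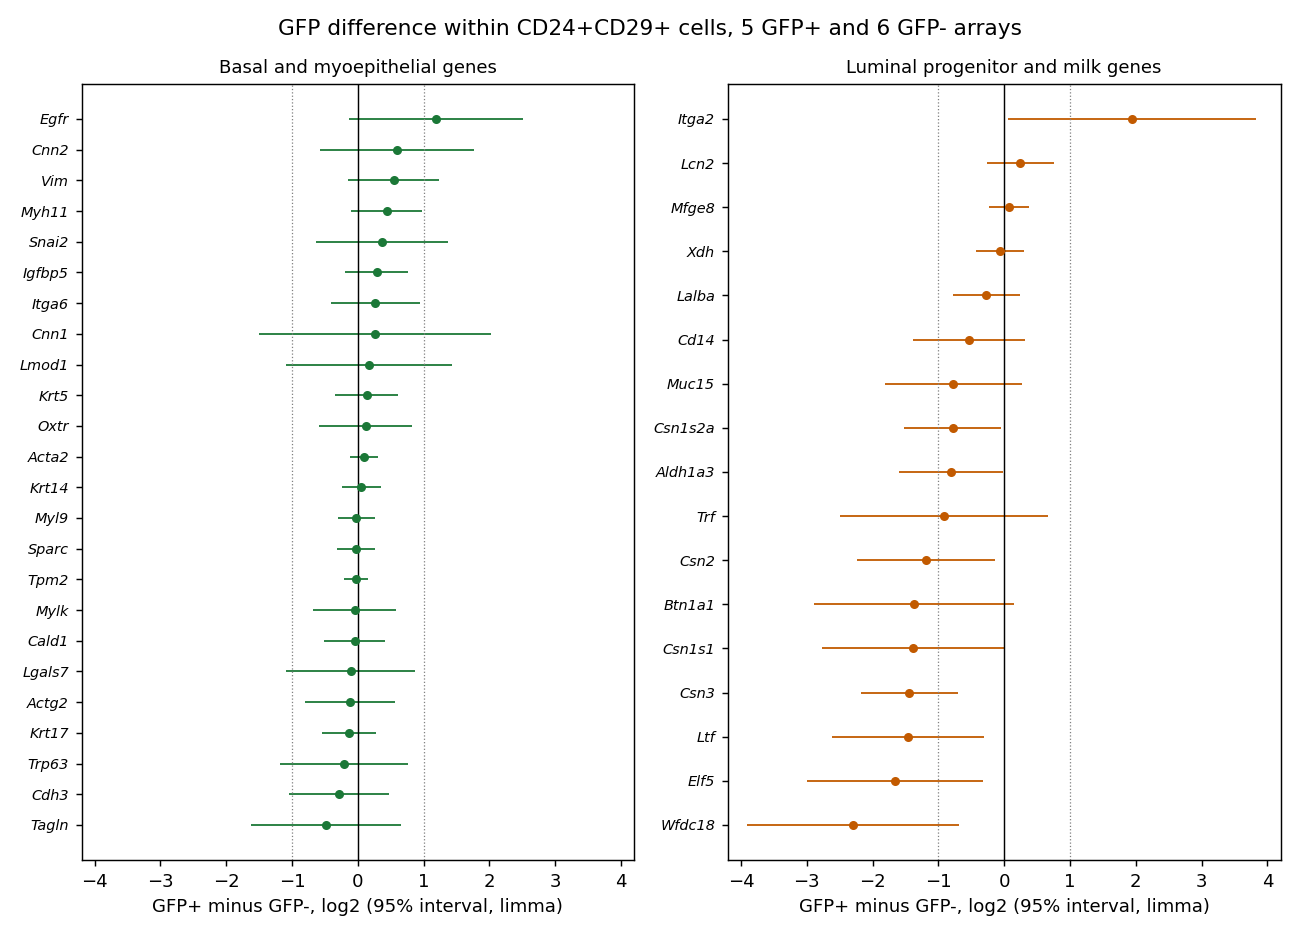
Difference in log2 intensity, GFP+ minus GFP-, with its 95% interval from limma, for the basal and myoepithelial genes (left) and the luminal progenitor and milk genes (right), with dotted lines at a 2-fold difference. The intervals for Krt14 (-0.25 to 0.35) and Acta2 (-0.12 to 0.30) lie between the dotted lines, and that for Csn3 (-2.18 to -0.70) lies wholly below 0.

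Pan-luminal genes were less uniform. Of 14 tested, 1 was lower, 1 higher and 11 had differences below 0, with a median of -0.17, and without the 3 arrays 2 were lower, 0 higher and the median was -0.05. Krt18, a luminal keratin, measured 8.85, 8.84, 9.08, 9.73 and 8.74 on the GFP+ arrays, against 9.27, 10.32 and 11.51 as the lowest, median and highest GFP- values, a difference of -1.14 (unadjusted limma p = 0.0139). Its partner Krt8 differed by -0.43 with an interval of -0.98 to 0.13. Gata3, a luminal transcription factor, had a difference of 0.70 in the other direction, near background, and was detected on 4 of 5 arrays of GFP+ cells and 1 of 6 arrays of GFP- cells. Hormone-sensing luminal genes had a median of -0.01, with 1 of 9 higher and 0 lower.

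The levels of luminal markers varied from array to array. A set of 6 luminal progenitor markers held Kit, Elf5, Aldh1a3, Cd14, Ltf and Csn3. Their summed linear signal ranged from 279.7 to 572.8 on the GFP+ arrays and from 618.4 to 1509 on the GFP- arrays, without overlap. Of the 5 tested, 4 had an unadjusted limma p under 0.05. These were Csn3, Elf5, Ltf and Aldh1a3, already given above, so the sum is no separate evidence. Csn3 was the brightest of the 5, and its own ranges touched. Lcn2, Mfge8 and Itga2, whose differences lay above 0, were not in the set. The summed linear signal of the 9 pan-luminal markers ranged from 1353 to 2665 on the GFP+ arrays and from 1839 to 6487 on the GFP- arrays. All 9 had differences below 0. GFP- replicate 25 held the highest value of both sums. Luminal cells in the GFP- basal samples and luminal transcripts within basal cells cannot be told apart in these data, and the part of either in the result was not tested.

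Genes of connective tissue and vessel walls had some members with large differences and others with none near that size. Of 12 fibroblast genes tested, 3 were lower and 0 higher at an unadjusted p under 0.05, with a median of -0.55, and without the 3 arrays 4 were lower and the median was -0.97. Col3a1, a fibrillar collagen chain, measured 4.77, 5.57, 4.65, 5.30 and 5.83 on the GFP+ arrays, against a lowest value of 6.66, a median of 8.46 and a highest value of 9.74 on the GFP- arrays. The ranges did not overlap (difference -3.13 ± 0.58 SE, limma adjusted p = 0.706), although a second probe of Col3a1 differed by -1.32 with an interval of -3.23 to 0.58.

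Col1a2, another collagen chain, and Clec3b, the plasminogen-binding protein tetranectin, differed by -2.14 and -2.58 with overlapping ranges. The fibroblast genes detected on every array differed little, by 0.19 for Dcn, the proteoglycan decorin, and by 0.04 for the brightest probe of Fbln1, a matrix glycoprotein. A dimmer Fbln1 probe, detected on 2 of 5 arrays of GFP+ cells and 6 of 6 arrays of GFP- cells, differed by -2.42 (unadjusted limma p = 0.0289). The fibroblast markers Dpt and Lum were detected on 0 of 5 arrays of GFP+ cells and 1 of 6 arrays of GFP- cells each. The summed signal of 7 fibroblast markers ranged from 1193 to 1860 on the GFP+ arrays and from 1278 to 2589 on the GFP- arrays. Fbln1 and Dcn had the highest means of those tested in both populations, so they weigh most in this sum. The part of fibroblasts in these differences was not tested.

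Rgs5, a regulator of G protein signaling known as a pericyte marker, was detected on 1 of 5 arrays of GFP+ cells and 5 of 6 arrays of GFP- cells. It measured 4.48, 4.44, 4.51, 6.93 and 4.53 on the GFP+ arrays, against 4.49, 8.64 and 9.51 as the lowest, median and highest GFP- values. GFP+ replicate 28 was the exception on one side and a GFP- array at background the exception on the other (difference -3.05, unadjusted limma p = 0.00572). The other 7 pericyte genes tested had unadjusted p-values above 0.05, and the pericyte genes Abcc9 and Notch3 were detected on no basal array. The summed signal of 6 pericyte markers ranged from 202.1 to 298.2 on the GFP+ arrays and from 207.6 to 917.3 on the GFP- arrays. Those other than Rgs5 differed only by -0.19 (Cspg4) to 0.16 (Notch3), so the sum mostly restates Rgs5.

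Markers of blood vessels and blood were low in both populations. The summed signal of 6 endothelial markers ranged from 140.0 to 160.4 on the GFP+ arrays and from 144.8 to 201.7 on the GFP- arrays, and that of 6 named macrophage and myeloid markers from 157.0 to 190.2 and from 144.3 to 198.1. No endothelial gene of 8 and no macrophage or myeloid gene of 5 had an unadjusted p under 0.05, but without the 3 arrays 2 of the 5 macrophage and myeloid genes were higher at such a p, with a median of 0.14. Csf1r, a macrophage growth factor receptor, was detected on 5 of 5 arrays of GFP+ cells and 1 of 6 arrays of GFP- cells, close to background, with a difference of 0.28. The glial Schwann cell list, with 4 genes tested, had a median of -0.85 and 1 gene lower, Cdh19, a cadherin. It was detected on 0 of 5 arrays of GFP+ cells and 5 of 6 arrays of GFP- cells, at least 3.25-fold lower in GFP+ cells, and its dimmer probe differed by -0.42.

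Genes tied to the reporter system itself showed little. The endogenous H2B histone genes, of the family fused to GFP in the transgene, had a median of -0.00 over 11 genes, with 1 higher (H2bc7, 0.59) and 0 lower at an unadjusted p under 0.05. The other 29 core histone genes had 0 in either direction and a median of -0.08. Of 15 genes for factors that act on the MMTV promoter, 0 were higher and 1 lower: Fkbp5, a cochaperone of steroid receptors induced by glucocorticoids, measured 5.32, 5.42, 4.51, 5.11 and 4.41 on the GFP+ arrays, against 5.48, 6.15 and 6.83 as the lowest, median and highest GFP- values. The ranges were close but apart, with a difference of -1.17. The 27 cell cycle genes had 0 in either direction and a median of -0.14, which was 0.10 without the 3 arrays.

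The signaling lists had at most 3 members each at an unadjusted p under 0.05. Of 31 Wnt pathway genes 1 was higher, Rnf43, a ligase that removes Wnt receptors (0.98), and 2 were lower, the ligand Wnt10a (-2.07) and the receptor Fzd1 (-0.83). Of 17 Notch pathway genes 0 were higher and 0 lower. Of 20 TGF-beta and BMP genes 1 was lower, the activin subunit Inhba (-2.45), and of 16 NF-kappaB genes 2 were lower, the cytokine Il6 (-2.48) and the inhibitor Nfkbia (-0.90). Of 20 EGF and FGF genes the ligands Epgn (-1.86) and Fgf7 (detected on 0 of 5 GFP+ arrays, at least 1.80-fold) were lower and 0 were higher.

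Among lists of abundant transcripts, 16 ribosomal protein genes had a median of 0.04 and 21 oxidative phosphorylation genes a median of 0.01, with 0 members of either at an unadjusted p under 0.05. Of the 31 genes named by the study, some of them chosen on these samples, 3 were lower, 1 was higher and the median was -0.08. The 9 genes that an earlier analysis of these samples had called are no independent evidence: 8 were lower without overlap, among them S100a4, a calcium-binding protein (detected on 0 of 5 GFP+ arrays, at least 1.76-fold), and Zhx1, a zinc finger and homeobox factor (-0.82, with other probes at 0.81, -0.28 and 0.08), and the brightest probe of Gtf3c2 differed by 1.61 with an interval of -0.43 to 3.66.

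Among the remaining lists, 0 members had an unadjusted p under 0.05 for 25 immediate early and stress, 16 interferon, 6 adipocyte, 3 erythroid and 2 lymphoid genes. A single gene was lower each among 20 stem cell markers (Aldh1a1, an aldehyde dehydrogenase, at least 1.21-fold and detected on 0 of 5 GFP+ arrays) and 23 chromatin silencing genes (Eed, a Polycomb subunit, -1.09), and likewise among 14 glucocorticoid targets, 15 matricellular genes and 13 potassium channel genes, where it was Fkbp5, Sparcl1 and Kcne4 in turn. A single gene was higher each among 9 histone variants (H1f10, a linker histone, 0.34) and 11 cholesterol synthesis genes (Sqle, squalene epoxidase, 1.45). S100a6 (-0.73) joined S100a4 as lower among 12 S100 genes, and L1cam (0.39) was higher and Alcam lower among 15 cell adhesion molecules.

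Some GFP+ minus GFP- differences were not the same size in basal and luminal cells. In a fit of the 22 arrays, 39 of 38697 probes (0.101%) had a difference between the gates at an adjusted p under 0.05 in limma, and for 7 of them, including probes of 5 named genes, the basal difference was the larger. The GFP+ and GFP- basal arrays of this test are those described above.

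Kcne4 differed by -2.75 in the basal and -0.03 in the luminal gate (limma adjusted p of the difference = 0.0232). It was detected on no luminal array, so its luminal difference could only lie near 0 and the test mostly repeats the basal difference. The adjusted p was under 0.05 in 18 of 22 fits that left out 1 array and without the 3 arrays that stood apart (0.0112). It was 0.106 without background correction. Sparcl1, detected on 1 of 5 GFP+ and 3 of 6 GFP- luminal arrays, differed by -2.87 in the basal and -0.20 in the luminal gate (adjusted p = 0.0161). This p was under 0.05 in 22 of 22 such fits, but not without the 3 arrays (0.0964) or with all 34 arrays and the array set in the fit (0.0529). Csn3 differed by -1.44 in the basal and 0.90 in the luminal gate (limma adjusted p of the difference = 0.0184, and 0.0595 without the 3 arrays). Its second probe gave -1.52 and 0.92. Within a gate the brightest Csn3 probe did not pass in this fit, with a limma adjusted p of 0.0944 (basal) and 0.279 (luminal). The dimmer Csn3 probe was not among those called.

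Gjb2 differed by -4.52 in the basal and 0.22 in the luminal gate, at an adjusted p of 0.0490 in limma that lay under 0.05 in only 2 of 22 fits with 1 array left out. Pear1 differed by 0.92 and -0.28 (adjusted p = 0.0338), under the threshold in 8 of 22 such fits, but not without the 3 arrays (0.0861) or with all 34 arrays (0.138). The unnamed transcript read by probe ILMN_2690603 measured 7.03, 6.38, 4.68, 4.75 and 4.41 on the GFP+ basal arrays, against 7.92, 9.45 and 10.26 as the lowest, median and highest GFP- values. It was bright in luminal cells, averaging 13.39 in GFP+ and 12.76 in GFP- arrays, and its difference between the gates was -4.54 (limma adjusted p = 0.00353, and 0.0058 without the 3 arrays).

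For the other 32 probes the luminal difference was the larger, and 27 of these were lower in GFP+ luminal cells. Several of the 32, such as those of Sytl2, Cxcl15, Proc and Tox3, were detected on no basal array. For them no basal difference could be measured. Others, such as those of Jag1, Robo1 and Gpc1, were detected on all basal arrays. Among the 27 were Esr1, the estrogen receptor, and Jag1, a Notch ligand, whose basal differences were -0.27 and 0.26. The Esr1 probe in question was near background in basal cells, detected on 0 of 5 GFP+ and 1 of 6 GFP- samples, and the brighter Esr1 probe differed by -0.89 in the basal and -3.07 in the luminal gate (limma adjusted p of the difference between the gates = 0.766). Slc7a2 was called here with a brightest probe that differed by 2.59 in the basal and -2.68 in the luminal gate. The limma adjusted p of the difference between the gates was 0.0119, and 0.0861 without the 3 arrays. Within a gate its limma adjusted p was 0.344 (basal) and 0.0477 (luminal). Alcam differed by -2.59 among basal arrays, as given above, and by -2.11 among luminal arrays, and the difference between the gates was -0.49 (limma adjusted p = 0.917).

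**Figure D5:**
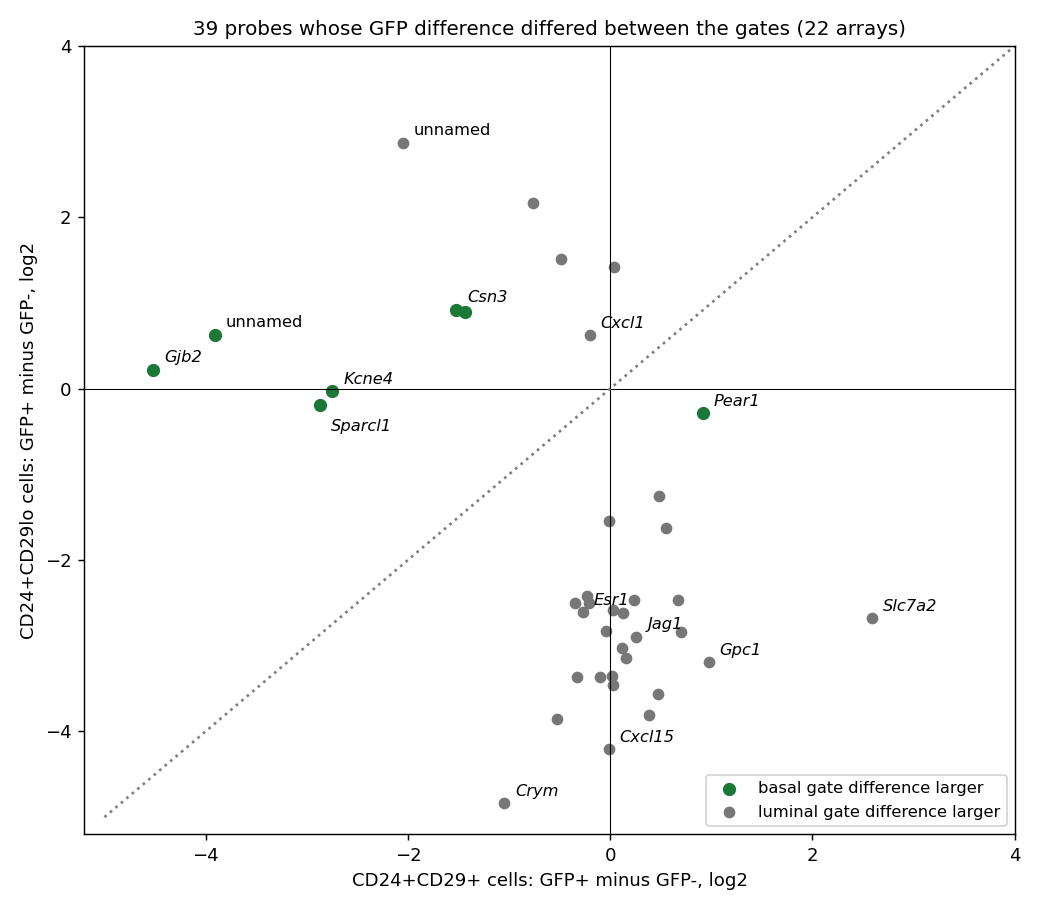
GFP+ minus GFP- difference in log2 intensity in basal cells (horizontal) and luminal cells (vertical) for the 39 probes whose difference varied between the gates, from the 22 arrays normalized together, with probes of larger basal difference in green and a dotted line where both are equal. Sparcl1 (-2.87), Kcne4 (-2.75) and Gjb2 (-4.52) lie far left on the basal axis and near 0 on the luminal axis. Kcne4 was detected on no luminal array and Sparcl1 on 1 of 5 GFP+ and 3 of 6 GFP- luminal arrays, while Gjb2 was detected on all.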

How the data were processed

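RNA of cells sorted by GFP, CD24 and CD29 was amplified with a NuGEN kit and hybridized to Illumina WG-6 v2 arrays, 1 per sample. The deposited intensity values of the authors are probe signals on a linear scale with neither background subtraction seen in the values nor normalization. The deposited fraction beside each signal is 1 minus its detection p against the negative control beads. A further deposited table holds log2 values as processed by the authors. Per the study's methods these steps included quantile normalization and an empirical Bayes correction for collection date, but which of them made the table is not given in the sources used here, so these values served only as an alternative. The submitters' processing notes name R 2.14.1.

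The signals of the 11 basal arrays were background-corrected, quantile-normalized and log2-transformed with neqc (offset 16) of limma 3.58.1 in R 4.3.3. Probes were retained if they exceeded the 20th percentile of the array on 80% or more of either group's arrays, which left 35373 of 45281 probes. GFP+ and GFP- arrays were compared with lmFit and eBayes of limma, two-sided, and p-values were adjusted after Benjamini and Hochberg across the retained probes, with 0.05 as the threshold. A fit of the 22 arrays of replicates 13 to 34, normalized together, tested whether the difference varied between the gates. No count of reads exists, so the number of arrays limits the precision. The procedure was tested on simulated data.

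Of the probes, 34885 carry 1 symbol from the platform table, 18 several and 10378 none, and 1 without was named (eGFP) from a supplement of the study. The probe of highest mean stands for a gene in lists. The 39 lists hold 633 genes, 567 with a named probe and 525 tested. Named genes are eGFP, the 12 of smallest p in each direction among detected probes with 1 symbol, 9 genes an earlier analysis called, the genes the study names, and from each list the 2 of highest mean and the 1 of smallest p. Others, such as the unnamed probe, Serping1 and further list members, were named after their values were seen. Members and lists were chosen with earlier results of these data known.

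Alternatives were no background correction, the 22 arrays normalized together, the authors' processed values, no filter or only detected probes, trend and robust variance, array weights, the methods' Student test, the 4 populations fitted together, 15 basal arrays in a fit that included the array set, and each array left out.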

Additional observations from a re-analysis of the deposited data

Results flagged for a closer look

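In 29 probes, mainly of leading genes and genes called earlier, 58 groups of 5 or 6 arrays were examined for a single array far from the rest. Chance picks out about 1 in 20 such groups, and 4 were found. In Gyg, which encodes the glycogen primer glycogenin, GFP+ replicate 15 was at 6.50, against 4.69 for the next GFP+ array, a gap of 0.89 of the range. In Kmt5b, a histone methyltransferase, GFP- replicate 33 was at 8.56, against 7.83 for the next GFP- array (0.735 of the range). In Carmil1, a regulator of actin capping, GFP- replicate 29 was at 5.03, against 4.61 (0.649). In Gtf3c2, a subunit of a general transcription factor, GFP- replicate 25 was at 4.54 for the brightest probe, against 8.47 for the next GFP- array (0.649).

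Most leading probes were chosen by their basal difference, which is 1 term of limma's test of the difference between the gates. Their count in that test is therefore only a description. Over all 38697 probes the test called 39 (0.101%). In luminal cells the probes of Kcne4, Sparcl1 and Pear1 were at or near background. The difference between GFP+ and GFP- cells varied between the basal and the luminal gate for 6 of the leading probes. It was -4.54 for ILMN_2690603 (adjusted p = 0.00353), 5.27 for Slc7a2 (0.0119), -2.67 for Sparcl1 (0.0161), -2.72 for Kcne4 (0.0232), 1.20 for Pear1 (0.0338) and -4.74 for Gjb2 (0.0490), each as the basal minus the luminal difference. Without background correction the adjusted p was 0.106 for Kcne4 and 0.251 for Gjb2, with the authors' processed values it was 0.0646 for Gjb2, and with all 34 arrays it was 0.0529 for Sparcl1 and 0.138 for Pear1. Without the 3 arrays that stood apart it was 0.0964 for Sparcl1, 0.0861 for Slc7a2 and for Pear1, and 0.113 for Gjb2.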

How the results depend on the processing

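The count of 0 probes called became 2 with only detected probes (Sparcl1 and Prxl2a), 8 with the 4 populations fitted together and 2 without the 3 arrays that stood apart, an alternative chosen after seeing the data. It was 0 to 2 with each array left out: 1 without GFP- replicate 30 (Sparcl1) and 2 without GFP- replicate 33 (Gjb2, and Atp2a3 at -4.18), and 0 under the other alternatives. The 1367 probes at an unadjusted p under 0.05 became 784 with only detected probes (fewer probes were tested) and 1267 to 1504 with each array left out. The 21172 probes with an interval within 2-fold became 3933 with only detected probes and 18033 to 21815 with each array left out. The 39 probes whose difference varied between the gates became 76 with the authors' processed values, 102 with all 34 arrays, 22 without the 3 arrays and 22 to 51 with each of the 22 arrays left out. Of these, GFP+ basal replicates 24, 28 and 32, GFP- basal replicates 29 and 30, GFP+ luminal replicates 16 and 34 and GFP- luminal replicates 18 and 27 each gave 22 to 25. The eGFP difference was 2.12 with the authors' processed values, 2.17 without background correction and 3.03 to 3.82 with each array left out. Among 150 named results, 0 of 3263 values under alternatives reversed, 128 changed sign with an interval that spans 0, and 13 were called. The median stayed below 0 in 22 of 22 alternatives for luminal progenitor (-1.13 to -0.36), milk (-1.37 to -0.38) and fibroblast genes (-2.14 to -0.15). The cause of the other shifts was not tested. All alternatives reuse these arrays or most of them, so an unchanged sign is no independent evidence. No paired analysis was possible because each replicate number belongs to a single sample.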
